A study of Homo sapiens with 4 samples.

Results

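The genes described here are 9 components of the epithelial tight junction, namely the claudins CLDN1, CLDN2, CLDN3, CLDN4, CLDN7 and CLDN12, the membrane proteins OCLN and F11R, and the scaffold TJP1. They were chosen by name, with earlier results of these data known, as 9 of the 58735 gene identifiers in the files. Of the 9, 8 passed a filter on low values that 14523 identifiers passed. The 9 genes were measured by RNA sequencing in HCT116, an established human colorectal cancer cell line of epithelial origin. There were 2 libraries from cells transfected with a control siRNA and 2 from cells transfected with siRNA against KIF26B, a kinesin family gene, all for 48 h. The groups differed in the siRNA alone as far as the labels say, a single cell line limits how far they stand for colorectal epithelium, and the study used more than a single siRNA against KIF26B. The column headers of these libraries carry different knockdown numbers (KD1 and KD2), so they may not hold the same siRNA, and what the numbers stand for is not given in the sources used here. The study used these libraries to examine what KIF26B does in colorectal cancer cells.

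Tight junctions seal the space between neighbouring epithelial cells near their apical side. Claudins are multi-pass membrane proteins whose extracellular loops pair across that space, and the mixture of claudins in a cell sets which ions pass. Most claudins of this group are regarded as sealing, whereas CLDN2 forms a pore for cations and water and is typical of leaky epithelia such as the crypts of the intestine. OCLN, a membrane protein of the same strands, and F11R, an immunoglobulin-like adhesion molecule also called JAM-A, sit beside the claudins. TJP1, also called ZO-1, is the cytoplasmic scaffold that ties claudins, OCLN and F11R to the actin cytoskeleton.

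Values are FPKM, fragments scaled to gene length and to the total of the library. Levels set side by side between genes therefore depend on the lengths used. The length fitted to CLDN4 was 4702 bases, more than the span of its RefSeq gene given below. That of OCLN was 6761 bases, against 11259 bases of GENCODE exons. The fragment totals by which the values had been scaled, inferred from their steps, were between 18068934 and 24673739 per library. KIF26B itself was scarce, at 0.110 and 0.205 FPKM in control siRNA replicates 1 and 2, and at 0.140 and 0.0307 FPKM in the libraries labelled KIF26B siRNA replicates 1 and 2. The level in the library labelled KIF26B siRNA replicate 1 thus lay between those of the controls, and the group difference did not pass the test (log2 difference -0.09, limma adjusted p = 0.775). The pair labelled KIF26B siRNA also differed between themselves, by a median absolute log2 difference of 0.280 over all genes tested, against 0.0733 between the controls. The share of reads from mitochondrial genes was 6.52% and 6.53% in the controls and 9.16% and 7.36% in the libraries labelled KIF26B siRNA, and its part in the differences below was not tested. The summed FPKM of 12 epithelial markers was 1681 and 1696 in the controls against 1564 and 1590, of which CDX1 was listed at 0 and VIL1, LGALS4, CEACAM5, TSPAN8 and KRT20 were below 1 FPKM. Of 13 markers of fibroblast, endothelial, immune and other cells, 12 were matched, 10 of these were below 1 FPKM in every library, and their summed level was 8.52, 8.23, 7.49 and 10.5 FPKM, mostly from COL1A1. Of that list 2 markers passed the filter, and at an unadjusted limma P below 0.05, 1 was higher and 0 lower. Of all genes tested, 7.74% were higher and 8.68% lower. The higher marker was ACTA2, a smooth muscle actin, at 0.633 and 0.599 FPKM in the controls. It was at 2.25 and 1.34 FPKM in the libraries labelled KIF26B siRNA (unadjusted limma P of 0.0181). COL1A1 was at 7.22 and 7.05 FPKM against 4.74 and 8.69 FPKM, so its groups overlapped. The part of ACTA2 in the results below was not tested.

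Promoter sequences are shown for the genes with the clearest differences and for the abundant claudins, so that the letters recognised by known regulators of junction genes can be seen. They were read from RefSeq (GRCh38.p14), which had windows for 8 of the 9 genes, F11R being the one without. Capitals mark CAGGTG or CACCTG, the E-box bound by the SNAI and ZEB repressors, and TGANTCA, a loose form of the AP-1 motif. That form allows any middle base, where the motif proper has C or G. In the whole windows, capitals also mark GGGCGG or CCGCCC, the GC box. Both strands were searched in the 250 bases before each start, also for GGAATG or CATTCC, the TEAD motif. The whole windows of CLDN3 (chr7:73770271-73770520, minus strand) and of the most upstream start of TJP1 (chr15:29969050-29969299, minus strand) are given 5′ to 3′, with 30-base stretches for CLDN4 (chr7:73830746-73830775 and chr7:73830823-73830852, plus strand), CLDN7 (chr17:7262481-7262510, minus strand) and OCLN (chr5:69492502-69492531, plus strand).
CLDN3: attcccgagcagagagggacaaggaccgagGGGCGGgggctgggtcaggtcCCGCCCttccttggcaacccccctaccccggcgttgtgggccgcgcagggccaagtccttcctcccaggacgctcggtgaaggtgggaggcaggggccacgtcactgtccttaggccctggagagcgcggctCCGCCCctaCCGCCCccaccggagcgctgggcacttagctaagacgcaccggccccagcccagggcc
TJP1: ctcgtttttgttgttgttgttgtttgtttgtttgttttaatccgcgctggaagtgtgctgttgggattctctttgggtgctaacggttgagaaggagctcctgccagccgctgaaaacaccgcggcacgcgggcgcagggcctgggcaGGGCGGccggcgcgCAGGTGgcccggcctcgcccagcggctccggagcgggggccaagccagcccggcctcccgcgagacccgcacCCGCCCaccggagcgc
CLDN4, distal: ctgggctgTGATTCAgtgtctgtctcccgg
CLDN4, proximal: gagactggatagTGACTCAgggacccgggg
CLDN7: cctacatatactCAGGTGcgcccCACCTGt
OCLN: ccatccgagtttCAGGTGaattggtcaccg

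Over the 14 windows of these 8 genes, the E-box letters were present in 4 windows with 7 matches in all. The loose AP-1 letters were in 2 windows with 3 matches, and the GC box in 8 windows with 15 matches. The loose AP-1 matches at CLDN2 and at the distal CLDN4 stretch read TGATTCA, which is outside the motif proper. The TEAD letters were in none of the 14 windows. The CLDN7 stretch shown comes from a window before a start inside the gene, which held 4 of the E-box matches. The window before the most upstream start of CLDN7 held 0. Over all 35116 windows of the same length, the share with a match was 17.5% for the E-box and 6.57% for the loose AP-1 letters. It was 42.6% for the GC box and 11.9% for the TEAD letters. No binding was measured in these cells, so a match describes the sequence alone.

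The 9 genes spanned a wide range of levels in the control siRNA libraries. By FPKM, CLDN4 and CLDN7 stood highest, above 97.1% and 95.6% of all genes tested. They were followed by TJP1, CLDN3, F11R, OCLN, CLDN12, CLDN2 and CLDN1, and no neighbours in this order overlapped in their control values. CLDN2, at 1.30 and 1.78 FPKM, was above 13.5% of genes tested, and CLDN1 lay under the filter. In both libraries labelled KIF26B siRNA, the order by FPKM placed CLDN7 before CLDN4, F11R before TJP1 and CLDN3, and CLDN12 before OCLN. This order depends on the gene lengths used for scaling.

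**Figure D1:**
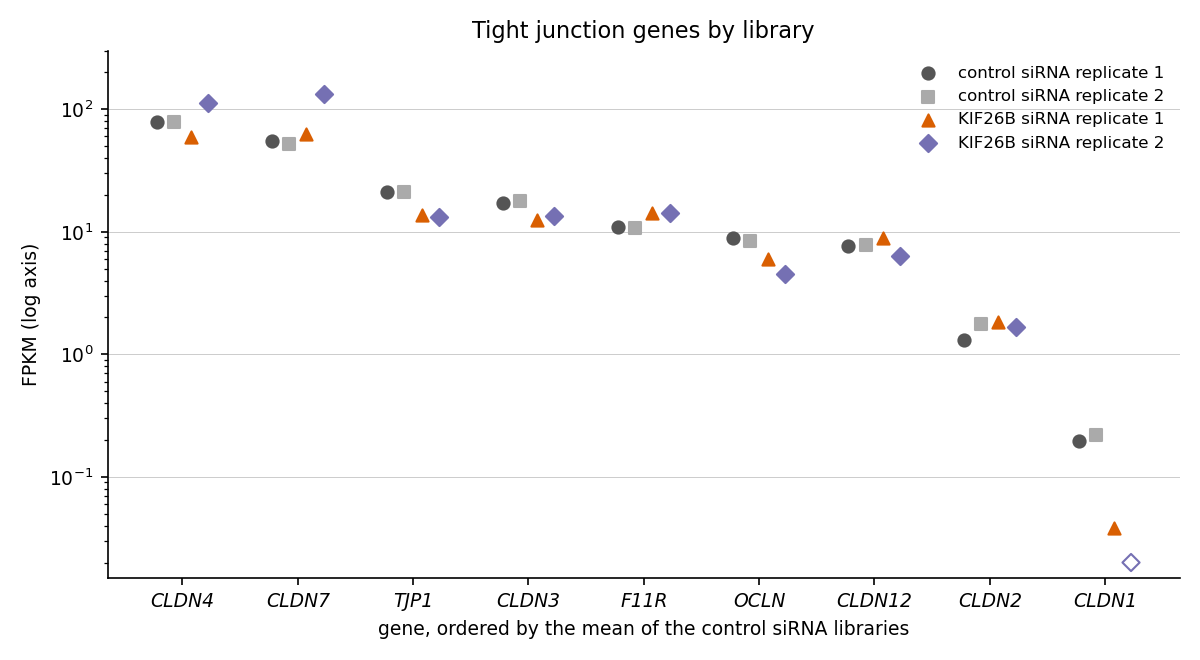
FPKM (log axis) of the 9 tight junction genes, ordered by their control mean, with a marker for each of the 4 libraries; the open marker stands for CLDN1 at 0 in KIF26B siRNA replicate 2. CLDN7 is highest in KIF26B siRNA replicate 2, at 134 FPKM, while TJP1, CLDN3 and OCLN lie below both controls in both KIF26B siRNA libraries.

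The scaffold TJP1 showed the smallest P of the 9 genes. TJP1 (chr15:29699367-29969049, GRCh38.p14) stood at 21.0 FPKM in each control siRNA library and at 13.7 and 13.3 FPKM in the libraries labelled KIF26B siRNA replicates 1 and 2. Both of the latter were below both controls, and they lay close to each other. The group means were 21.0 ± 0.0303 FPKM (SD, n = 2) and 13.5 ± 0.287 FPKM (SD, n = 2). The log2 difference of log2(FPKM + 1) was -0.60, with a standard error of 0.11 and a 95% interval of -0.90 to -0.30. In limma its unadjusted P was 0.00508 and its Benjamini-Hochberg adjusted p was 0.242, so the difference passed an unadjusted threshold of 0.05 and not the correction over all genes. In bulk libraries fewer cells with a transcript and less of it per cell cannot be told apart.

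OCLN (chr5:69492547-69558104) was also lower in both libraries labelled KIF26B siRNA. It was measured at 8.94 and 8.48 FPKM in the controls and at 6.04 and 4.53 FPKM in KIF26B siRNA replicates 1 and 2. The groups did not overlap, and replicate 2 was the lower of the pair. Against the control mean these libraries stood at ratios of 0.693 and 0.520. The log2 difference was -0.64 (SE 0.16, 95% interval -1.09 to -0.18), with an unadjusted limma P of 0.0179 and an adjusted p of 0.254. OCLNP1, an unprocessed pseudogene copy of OCLN, was listed at 2.10, 1.55, 0.965 and 0.571 FPKM in the same order of libraries, so reads may have been divided between the pair and the OCLN values are uncertain to that extent.

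F11R (chr1:160995211-161021152) was higher in both libraries labelled KIF26B siRNA. It stood at 10.97 and 10.7 FPKM in the controls and at 14.2 and 14.3 FPKM in the libraries labelled KIF26B siRNA. The groups were well apart and the libraries within each were alike. Its log2 difference was 0.37 (SE 0.11, 95% interval 0.07 to 0.67), with an unadjusted limma P of 0.0276 and an adjusted p of 0.272. F11R shares 1853 exon bases on its strand with another annotated gene, ENSG00000270149, which was listed at between 0.499 and 0.916 FPKM, so reads in the shared bases cannot be assigned to either.

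Among the claudins, CLDN3 (chr7:73768997-73770270), a sealing claudin of the gut epithelium, was measured at 17.0 and 17.8 FPKM in the controls. The libraries labelled KIF26B siRNA held 12.6 and 13.4 FPKM. Both were below both controls, at group means of 17.4 ± 0.507 FPKM and 13.0 ± 0.576 FPKM (SD, n = 2 each). The log2 difference was -0.40 (SE 0.11, 95% interval -0.71 to -0.08), with an unadjusted limma P of 0.0247 and an adjusted p of 0.270.

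CLDN4 (chr7:73830996-73832690), another sealing claudin, lies near CLDN3 on chromosome 7. It was measured at 78.1 and 78.6 FPKM in the controls, at 59.1 FPKM in the library labelled KIF26B siRNA replicate 1 and at 111 FPKM in replicate 2. Replicate 1 was below both controls and replicate 2 above both, at ratios of 0.754 and 1.42 to the control mean. The log2 difference of 0.05 had a standard error of 0.34 and a 95% interval of -0.89 to 0.99, so these libraries leave the direction for CLDN4 undetermined. Its limma adjusted p was 0.949.

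CLDN7 (chr17:7259903-7263213), a claudin of the lateral membrane as well as of the junction, had the largest log2 difference of the 8 genes tested. Its values were 55.0 and 52.3 FPKM in the controls, 63.1 FPKM in KIF26B siRNA replicate 1 and 134 FPKM in replicate 2. Both libraries labelled KIF26B siRNA were above both controls, at ratios of 1.18 and 2.50 to the control mean, and most of the group difference came from replicate 2. The log2 difference was 0.77 (SE 0.40, 95% interval -0.33 to 1.87), and it did not pass the test. Its limma adjusted p was 0.408. CLDN7 shares 38 exon bases with ELP5 on the opposite strand, and the strand setting of the counting is not given in the sources used here. On its own strand it shares 269 exon bases with ENSG00000262302, an annotated gene listed at 0 in every library.

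CLDN12 (chr7:90403461-90415954), a claudin that lacks the usual binding site for the scaffold, was at 7.66 and 7.74 FPKM in the controls and at 8.88 and 6.32 FPKM in the libraries labelled KIF26B siRNA. Replicate 1 was above both controls and replicate 2 below both, with a log2 difference of -0.03 (SE 0.19, 95% interval -0.55 to 0.49, limma adjusted p = 0.939). The pore-forming CLDN2 (chrX:106900164-106930861) was at 1.30 and 1.78 FPKM in the controls and at 1.84 and 1.66 FPKM in the other libraries. Its groups overlapped, with a log2 difference of 0.12 (SE 0.15, 95% interval -0.29 to 0.53, limma adjusted p = 0.718). CLDN12 shares exon bases with GTPBP10 and CDK14 on its strand, and CLDN2 with RIPPLY1 on the opposite strand. CLDN12 also shares exon bases on its strand with PTTG1IP2 and ENSG00000273299, both listed at 0 in every library.

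CLDN1 (chr3:190305707-190322446), a sealing claudin, was near the limit of detection. It was listed at 0.195 and 0.221 FPKM in the controls, at 0.0383 FPKM in KIF26B siRNA replicate 1 and at 0 in replicate 2. These values stood for 14, 20, 3 and 0 reads recovered from the FPKM steps. The exact 95% interval of the 0 reached 3.69 reads, or 0.0557 FPKM. The pooled ratio of KIF26B siRNA to control siRNA was 0.0991, with an exact 95% interval of 0.0195 to 0.315 that covers counting error only. In a fit without the filter on low values its log2 difference was -0.25 on the log2(FPKM + 1) scale, which compresses low levels. The unadjusted limma P of CLDN1 was 0.0270 and its adjusted p was 0.331. In that fit 4378 of 34638 genes had an unadjusted P below 0.05.

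**Figure D2:**
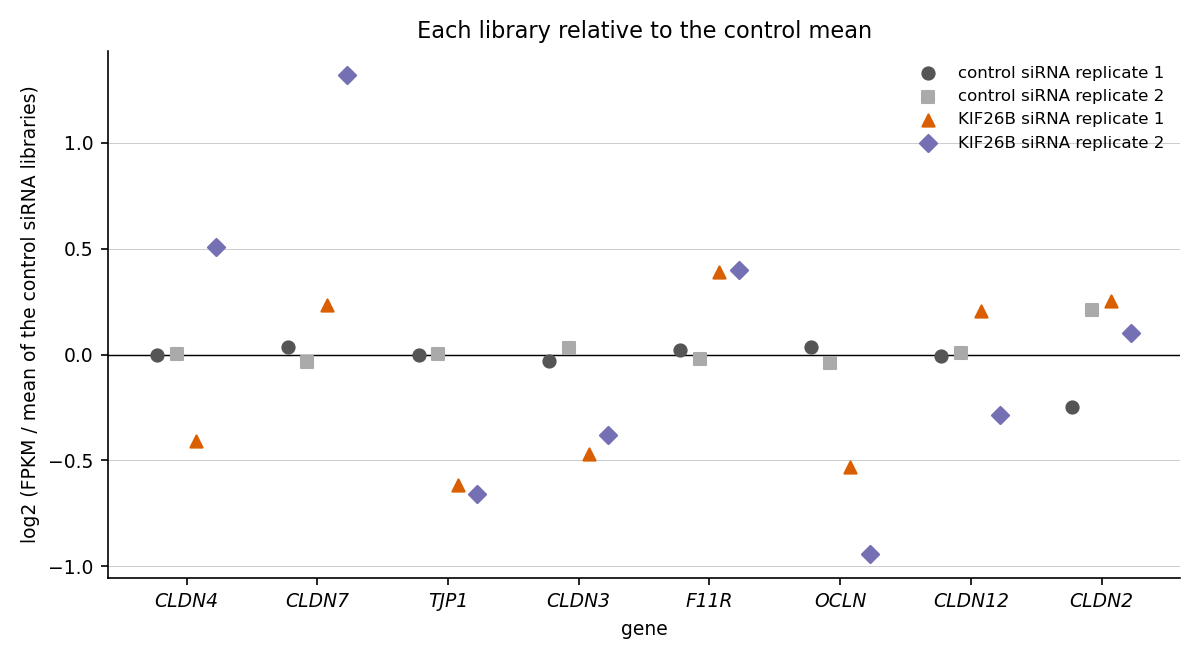
Log2 of FPKM over the control mean for the 8 tight junction genes that passed the filter, with a marker for each library. TJP1, CLDN3 and F11R show KIF26B siRNA replicates that lie close together, whereas CLDN4 and CLDN12 show replicates on opposite sides of the controls and CLDN7 reaches a ratio of 2.50 in replicate 2.

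Of the 8 genes tested, 3 were lower (TJP1, OCLN and CLDN3) and 1 was higher (F11R) at an unadjusted limma P below 0.05, where 8.68% of all genes tested were lower and 7.74% were higher. The genes were chosen with earlier results of these data known, so the counts are no independent test. These 4 calls needed both control siRNA libraries, and without either of them far fewer of all genes passed as well. Without control siRNA replicate 1 or replicate 2, the log2 difference was -0.6045 or -0.6017 for TJP1 and -0.6035 or -0.672 for OCLN. It was -0.425 or -0.3688 for CLDN3 and 0.3843 or 0.3478 for F11R. None of the 8 passed the study's thresholds of an unadjusted P below 0.05 with an absolute log2 difference above 1, which 0.606% of all genes passed as lower and 0.813% as higher. By the Benjamini-Hochberg adjusted p, 0 of the 14523 genes were called (0%) in limma, and 0 in limma-voom on the recovered reads. At an unadjusted P below 0.05, limma called 2385 genes and limma-voom 2590. The libraries labelled KIF26B siRNA lay below both controls for 3 of the 8 genes and above both for 2, against 27.8% and 24.9% of all genes. The median log2 difference of the 8 genes was 0.01, and the median of its absolute value was 0.381, against -0.01 and 0.216 over all genes tested.

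Without the library labelled KIF26B siRNA replicate 1, in which KIF26B was not below the controls, 4 of the 8 genes had a limma adjusted p below 0.05, as did 17.3% of all genes. That comparison rests on a lone library that is assumed to vary as the controls do. The genes were CLDN7 (log2 difference 1.31, adjusted p = 0.0463), CLDN4 (0.50, adjusted p = 0.0478), OCLN (-0.81, adjusted p = 0.0463) and TJP1 (-0.62, adjusted p = 0.0463). Without replicate 2 instead, the log2 difference was 0.23 for CLDN7, -0.40 for CLDN4, -0.46 for OCLN and -0.58 for TJP1, and no gene passed the correction. The sign for CLDN4 therefore turned with the library left out, while those for CLDN7, OCLN and TJP1 did not.

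The claudin transcripts were also summed, to give the share of each in a library. The summed FPKM of 23 matched claudins was 174 and 172 in the controls, 158 in KIF26B siRNA replicate 1 and 280 in replicate 2, and 6 claudins were listed at 0 in every library. CLDN4 made up 44.9% and 45.7% of the sum in the controls and 37.3% and 39.8% in the libraries labelled KIF26B siRNA. The share of CLDN7 was 31.7% and 30.4% in the controls against 39.9% and 47.9%. In FPKM, CLDN7 stood at ratios of 0.704 and 0.666 to CLDN4 in the controls and at 1.07 and 1.20 in the other libraries. The change in ratio between libraries does not depend on the gene lengths used, but which claudin stood higher does, as do the shares. The length fitted to CLDN4 was 4702 bases, more than the span of its RefSeq gene. In recovered reads, not scaled to length, CLDN4 exceeded CLDN7 in every library. The reads were 5934 against 3359 in KIF26B siRNA replicate 1 and 9473 against 6044 in replicate 2. CLDN3 made up 9.80% and 10.3% of the sum in the controls, 7.94% in KIF26B siRNA replicate 1 and 4.78% in replicate 2.

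Set against the scaffold in FPKM, the claudin sum was 8.28 and 8.18 times the level of TJP1 in the controls. It was 11.5 times that level in KIF26B siRNA replicate 1 and 21.1 times in replicate 2. TJP3, a related scaffold named after its values were seen, stood at 14.3, 14.1, 16.3 and 23.2 FPKM in the same order, and its log2 difference was 0.43 (SE 0.20, limma adjusted p = 0.379).

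The wider pathway was taken from a list of 60 other tight junction genes, of which 37 passed the filter. At an unadjusted limma P below 0.05, 5 were lower, 0 were higher and 32 did not pass, where 8.68% of all genes tested were lower and 7.74% higher. The 5 were AMOTL2, CLDN23, ARHGEF11, CXADR and PARD6B, and the median log2 difference over the 37 genes was 0.00. Without control siRNA replicate 1 or replicate 2, 1 of the 37 was lower and 0 were higher, against 1.67% and 1.61% of all genes lower and 1.93% and 1.82% higher. Without KIF26B siRNA replicate 1, 10 were lower and 8 higher, where 23.7% of all genes were lower and 22.9% higher. Without replicate 2, 13 were lower and 3 higher, where 22.4% of all genes were lower and 17.5% higher. AMOTL2, an angiomotin that binds YAP and junction proteins, passed the study's thresholds, at 20.1 and 21.2 FPKM in the controls and 7.63 and 9.06 FPKM in the libraries labelled KIF26B siRNA (log2 difference -1.21, limma adjusted p = 0.242). PARD6B, a polarity adaptor that works with atypical protein kinase C, was at 13.0 and 12.6 FPKM in the controls and at 5.98 and 9.45 FPKM. CLDN23 was at 4.81 and 4.37 FPKM against 2.40 and 2.81 FPKM.

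CXADR, an adhesion molecule of the same immunoglobulin-like kind as F11R, was at 8.62 and 8.19 FPKM in the controls and at 6.56 and 6.26 FPKM in the libraries labelled KIF26B siRNA, with a log2 difference of -0.34 where that of F11R was 0.37. ARHGEF11, a RhoA exchange factor that binds TJP1, was at 10.5 and 9.72 FPKM against 7.80 and 7.47 FPKM. The next by P were MAGI1, AMOT, BVES and MAGI3, which were lower by log2 differences of -0.29, -0.32, -0.41 and -0.36, and ILDR1, a protein of tricellular contacts, which was higher by 0.35, all with an unadjusted limma P between 0.0549 and 0.0867. Of 15 transcription factors known for regulating epithelial junction genes, 8 passed the filter. Of these, 0 had an unadjusted limma P below 0.05, where 8.68% of all genes tested were lower and 7.74% higher. SNAI2, on the same list but under the filter, is described further below.

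**Figure D3:**
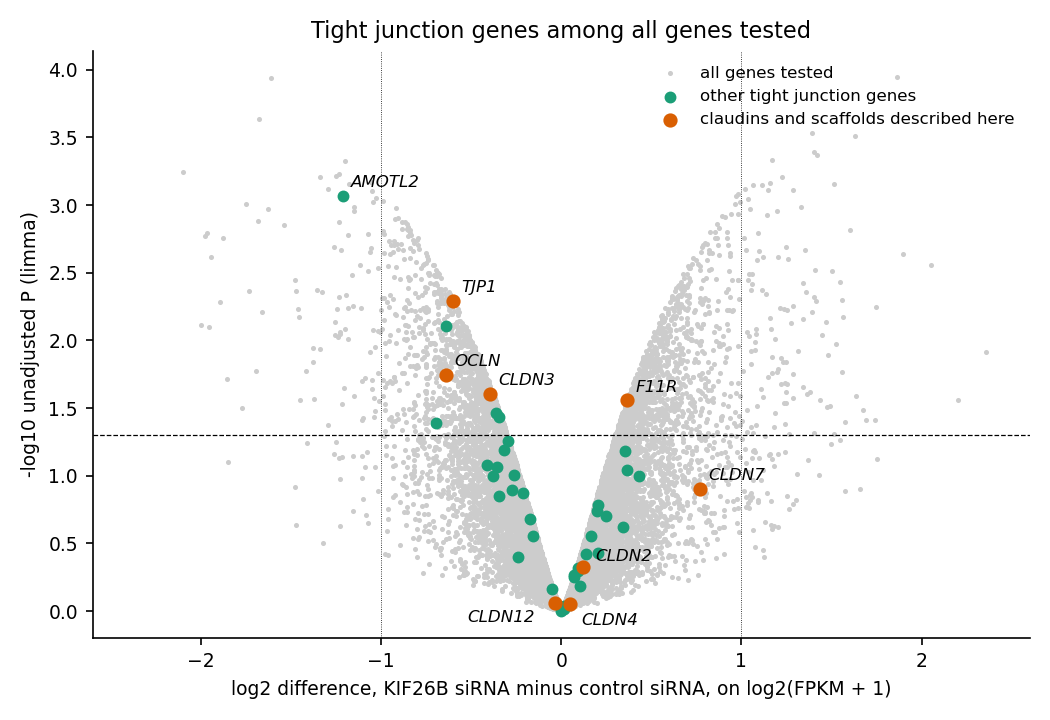
Log2 difference (KIF26B siRNA minus control siRNA, on log2(FPKM + 1)) against -log10 of the unadjusted limma P for the 14523 genes tested, with the 8 tight junction genes and the 37 others of the pathway marked; the dashed line stands at the study's P threshold and the dotted lines at a log2 difference of 1 either way. TJP1, OCLN, CLDN3 and F11R lie above the dashed line inside the dotted lines, and AMOTL2 lies outside them.

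The genes most like CLDN7, the gene with the largest difference, were named by the smallest Euclidean distance between centred log2(FPKM + 1) profiles over the 4 libraries. They were SQSTM1, at a distance of 0.0784, AARS1 at 0.0861 and BLVRB at 0.0863. SQSTM1, an autophagy receptor, was at 34.4, 34.8, 42.4 and 87.9 FPKM. With 4 libraries, such likeness describes a single high library above all.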

How the data were processed

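The authors sequenced poly(A) RNA as paired-end libraries and deposited 1 value per Ensembl gene and library, which the files and their steps show to be FPKM. Their processing notes name HISAT2 2.0.5, featureCounts 1.5.0-p3 and hg38, whereas the study's methods name hg19 and a test on counts. Here 56513 of 58735 identifiers were given symbols from GENCODE v44 on GRCh37, and positions and promoters came from RefSeq GRCh38.p14. Since FPKM are not counts, limma 3.58.1 (R 4.3.3) was fitted to log2(FPKM + 1) without covariates, keeping genes whose mean reached 1 FPKM, with Benjamini-Hochberg adjustment over 14523 genes. With a length fitted to each gene, the deposited FPKM could be written as whole reads for 34637 of 34638 genes above 0 (tolerance 0.003 reads). Such a length is easily found for genes above 0 in few libraries, so the match is no test of the reads. The recovered reads came to 20066547 to 26014762 per library. In every library they exceeded the inferred fragment total, for a reason that was not tested. Intervals from these reads cover counting error only. With 2 libraries a group an exact permutation test cannot go below 0.333 and was not run. Whether replicates were separate cultures is not given in the sources used here, so P may measure technical spread.

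Named genes were KIF26B, the 9 tight junction genes, other tight junction genes past the study's thresholds or among the 10 smallest P, junction transcription factors with P below 0.05, and the 3 profiles nearest to the gene with the largest difference. The genes and lists were chosen with earlier results of these data known. Alternatives were another filter, none, a pseudocount of 0.1, median-of-ratios scaling, a variance trend, limma-voom, a replicate block and leaving out each library. TJP3, SNAI2 and the cell type markers with values were named outside the rule, after their values were seen.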

Additional observations from a re-analysis of the deposited data

How the results depend on the processing

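Of the genes passing the study's thresholds, 88 were lower and 118 higher. These counts were 52 and 69 with at least 1 FPKM required in every library, 203 and 217 with a pseudocount of 0.1, 204 and 197 by limma-voom on recovered reads, and 123 to 223 and 156 to 334 when 1 library was left out, with 193 and 334 without KIF26B siRNA replicate 1, 223 lower without replicate 2 and 135 lower without control siRNA replicate 1. Of the other tight junction genes, 5 were lower and 0 higher at P below 0.05. With a replicate block 3 were lower, with no filter or a pseudocount of 0.1 there was 1 higher, and leaving out 1 library gave 1 to 13 lower and 0 to 8 higher. Replicate numbers are shared by label alone, and the deviations of same-numbered libraries correlated at -0.00314. With the replicate block, the log2 differences of CLDN1 (-0.25), CLDN3 (-0.40) and F11R (0.37) no longer passed an unadjusted threshold of 0.05 in limma, while TJP1 and OCLN did.

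Leaving out 1 library gave log2 differences of -0.62 to -0.58 for TJP1, -0.81 to -0.46 for OCLN, -0.44 to -0.35 for CLDN3, 0.35 to 0.38 for F11R, -0.27 to -0.22 for CLDN1, 0.23 to 1.31 for CLDN7 and -0.17 to -0.02 for KIF26B. The range was -0.40 to 0.50 for CLDN4 and -0.25 to 0.18 for CLDN12, both turning without KIF26B siRNA replicate 2, and -0.019 to 0.26 for CLDN2, which turned without control siRNA replicate 1. Without either control siRNA library, TJP1, OCLN, CLDN3, F11R and CLDN1 no longer passed P of 0.05, where far fewer of all genes passed as well. Over all alternatives computed, 87 log2 differences kept their direction and side of the threshold, 13 lost the threshold, 3 newly passed it and 3 reversed, while 25 counts of genes stayed within 1.5 times and 19 did not. The cause was not tested. Depth limits CLDN1 and KIF26B, which rest on at most 73 reads in a library.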

Other observations

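SNAI2, a repressor that binds E-boxes, lay under the filter on low values and was named after its values were seen. It was listed at 0.901 and 0.848 FPKM with control siRNA, whereas the libraries labelled KIF26B siRNA held 0.207 and 0.212 FPKM. In the limma fit without that filter its log2 difference was -0.63, with an unadjusted P of 0.00125 and an adjusted p of 0.250. That fit gave 4378 of 34638 genes an unadjusted P below 0.05. No other listed transcription factor under the filter was among them. Of the 12 epithelial markers, 6 passed the filter. At an unadjusted limma P below 0.05, 2 of these were lower and 0 higher, where 8.68% of all genes tested were lower and 7.74% higher. The 2 lower markers were KRT8 and KRT18, the paired keratins of simple epithelia. KRT8 was at 485 and 482 FPKM in the controls against 369 and 350 FPKM (limma adjusted p = 0.254). KRT18 was at 245 and 243 FPKM against 175 and 168 FPKM (limma adjusted p = 0.242). KRT19, the most abundant marker, was at 842 and 862 FPKM in the controls and at 921 and 951 FPKM in the other libraries, a log2 difference of 0.14 that did not pass the test. EPCAM was at 82.2 and 82.3 FPKM against 77.0 and 98.6 FPKM. CDH1, the cadherin of epithelial adherens junctions, was at 24.1 and 23.9 FPKM against 17.7 and 20.2 FPKM, with an unadjusted limma P of 0.0593.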
